A study of Homo sapiens with 30 samples.

Results

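At definitive endoderm, 18814 autosomal regions of the genome were listed as differing in chromatin accessibility between HNF6 knockout and control cells. They were taken from the 2 deposited lists of that stage: 7004 regions higher in control cells and 11810 higher in knockout cells, out of 89929 regions in the lists of all stages. The control list therefore held 37.2% of the regions (95% Wilson interval 36.5 to 37.9, counting error only). A further 130 regions of the stage, on the sex chromosomes and the mitochondrial genome, were left out of this count.

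The cells were HUES8, an established human embryonic stem cell line, either of wild-type genotype (called control here) or with HNF6, also named ONECUT1, knocked out. Accessibility was measured by ATAC-seq in 30 samples, 3 for each genotype at each of 5 stages of differentiation towards the pancreas: ESC for undifferentiated cells, DE for definitive endoderm, GT for the gut tube, PE for endoderm of the pancreas and PP for its progenitors. The 6 DE samples are 3 control and 3 knockout. The labels say neither how the gene was inactivated, nor how many clones were used, nor if samples with the same label were separate cultures. The spread within a group may therefore be only technical.

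ATAC-seq uses a transposase that cuts and tags open DNA, so that promoters and enhancers bound by transcription factors yield many fragments and compact chromatin yields few. Definitive endoderm is the embryonic layer from which gut, liver and pancreas arise, and in culture it is induced from pluripotent cells by Nodal-type signalling together with factors of the EOMES, SOX17, FOXA and GATA families. HNF6 is a homeodomain transcription factor with a cut domain, best known for its work after this stage, in the developing liver, bile ducts and pancreas.

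Each deposited region carries 3 whole numbers for the knockout and 3 for the control, called values here, since the sources do not say whether they are read counts or scaled. The order of the 3 values is not tied to replicate numbers. The depth of the samples is unknown, since no library totals are given. The regions were selected by the authors for a genotype difference, so the genotype differences below are descriptions without a test. With 3 values against 3, an exact two-sided permutation test of 1 region cannot go below p = 0.1. No region was paired with a gene, because no gene annotation of hg19, the build of the positions, was used here. The markers of definitive endoderm were for the same reason not checked.

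The knockout list was longer, and the control list held the larger ratios. With 1 added to each genotype mean, the log2 ratio between the means had a median size of 1.09 in the control list (quartiles 0.78 to 1.54) and of 0.82 in the knockout list (0.61 to 1.13). A ratio of at least 2-fold was reached by 4020 control regions (57.4%) and by 3964 knockout regions (33.6%). The median standard error of a region's log2 ratio, from its 6 values, was 0.37 in the control list and 0.29 in the knockout list. The log2 ratio exceeded 2 standard errors in 5479 control regions (78.2%) and 9587 knockout regions (81.2%).

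The 3 values of one genotype lay wholly above the 3 of the other in 5592 regions of the control list, which is 79.8%, and in 8971 of the knockout list, which is 76%. In the remaining regions at least 1 library of the lower genotype reached a library of the higher one. In the authors' deposited tables the -log10 p of every DE region was at least 5, and 50.5% of the control regions and 46.4% of the knockout regions had one below 6. A -log10 p of at least 10 was given to 314 control and 783 knockout regions.

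The 2 lists differed in the width of their regions. Regions higher in control had a median width of 650 bp (quartiles 400 to 1000), and regions higher in knockout had a median of 1000 bp (650 to 1600). The control list covered 5480 kb and the knockout list 14886 kb. Regions of at least 3 kb numbered 33 in the control list and 610 in the knockout list, where they made up 5.17% and the widest spanned 10400 bp. At the other end, 11.8% of the control list (828) and 2.16% of the knockout list (255) were at most 300 bp wide.

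Within a width class the deposited values gave a genotype difference of nearly the same size in either list. Regions of up to 300 bp had a median log2 ratio of 2.07 in the control list and 2.09 in the knockout list. Between 500 and 1000 bp, the class with most regions, the medians were 1.00 in 2774 control regions and 0.99 in 4184 knockout regions. Above 3000 bp they were 0.42 in 32 control regions and 0.43 in 562 knockout regions. The lower overall median of the knockout list thus went, in the deposited values, with its wider regions, which had smaller ratios in both lists. With each library scaled to the same sum over the listed regions, the classes no longer matched. Between 500 and 1000 bp the medians were 1.26 in the control list and 0.73 in the knockout list, and above 3000 bp 0.69 and 0.17. Values rose with width as well: the median of the higher genotype mean was 58.7 in control regions of up to 300 bp and 1098 in those above 3000 bp. In knockout regions it was 56.3 and 1125. Every listed region had a -log10 p of at least 5, a limit that regions of low signal reach only with a large ratio. The match within classes and the fall with width may therefore follow from that selection, which was not tested. Per kb of region, the higher genotype had a median of 240 in the control list and 252 in the knockout list, and the lower genotype 111 and 144.

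**Figure D1:**
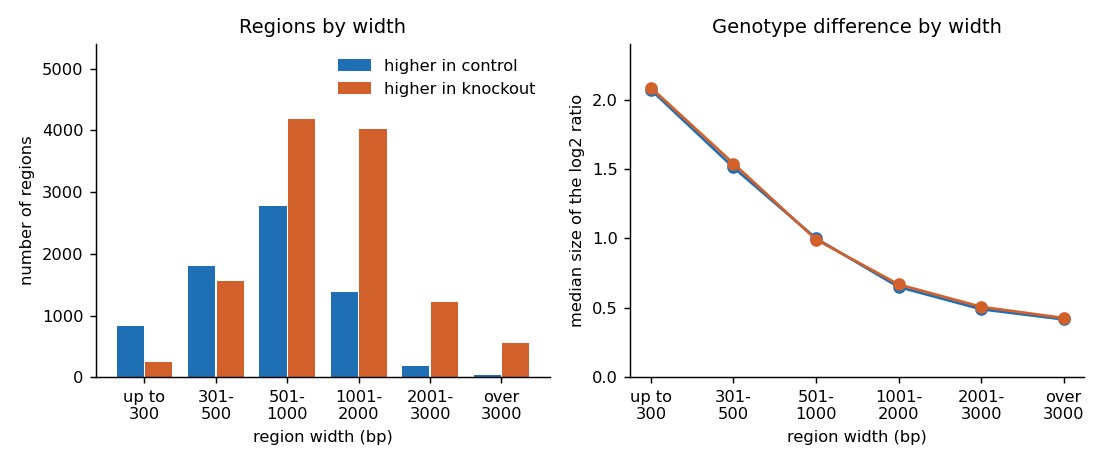
Left, number of DE regions in each width class (bp) in the list higher in control and the list higher in knockout; right, the size of the log2 ratio of the genotype means (median) in the same classes. Knockout regions outnumber control regions above 500 bp, while the 2 curves of ratio size, from the deposited values without rescaling, nearly coincide and fall from about 2.07 to about 0.42.

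One knockout library stood above the other 2 in the knockout list. Its first values summed to 4862919 over the 11810 regions, against 4028421 and 4189338 for the second and the third, which is 1.18 times the mean of those 2. The first value was the highest of the 3 knockout values in 63.3% of these regions (7479), and the second and the third in 16.5% and 20.2%. In the control list the knockout libraries were closer, with sums of 970760, 959718 and 929796, and the control libraries summed to 1716520, 1662935 and 1607723. Without the first knockout value the median log2 ratio of the knockout list was 0.70 in place of 0.82, and 9235 of its regions had values that did not overlap. Leaving out any value cannot bring this number below the 8971 found with all values. It was larger without the second knockout value (10293) or the third (9989), and without a control value (9922, 9554 and 9763). Without the first knockout value 11805 of the 11810 regions kept their direction.

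The 3 knockout libraries also summed to more than the control libraries over the 2 lists together, with 5833679, 4988139 and 5119134 against 4593998, 4360658 and 4359722. When each library was scaled to the same sum, the control median rose to 1.35 and the knockout median was 0.56. Under that scaling 9 knockout regions and 0 control regions changed direction, and the number of knockout regions whose values did not overlap was 5360 in place of 8971. The sums run only over listed regions, and more of these, over a greater total width, were listed as higher in knockout. Larger knockout sums, and the shift towards control on scaling, therefore follow from the make-up of the lists. Whether depth or more accessible chromatin lies behind that make-up cannot be told apart without library totals.

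The 5 control-list regions with the highest -log10 p began with a pair on chromosome 15, the chromosome that carries ONECUT1. The files do not pair these regions with the gene. At chromosome 15, 53079951 to 53081900, the control values were 514, 505 and 471 and the knockout values 28, 0 and 0. At 53076251 to 53077150 the control values were 288, 267 and 282 and the knockout values 10, 0 and 0. The value was thus 0 in 2 of the knockout libraries at both places, while the first knockout library kept 5.64% and 3.58% of the control mean. That library is the one with the larger sum in the knockout list, and the origin of its residual signal was not tested. The log2 ratio of control over knockout was 5.59 ± 1.62 (SE, n = 3 per genotype) at the first region and 6.01 ± 1.15 at the second. Without the first knockout value the ratios, then set by the 1 added to each mean, were 8.96 and 8.13. Regions overlapping this pair were higher in control at 3 other stages too. The ESC region that spans both, 53075501 to 53082400, had a log2 ratio of 7.50 ± 0.30, with low values in all 3 knockout libraries, 18, 17 and 9. At PE the overlapping regions had log2 ratios of 3.19 ± 0.37 and 9.83 ± 0.67, and at PP the one overlapping the first of the pair had 3.57 ± 0.33.

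The other 3 leading control regions differed by a smaller step and stayed accessible in the knockout. At chromosome 3, 193530601 to 193531600, the control values were 956, 960 and 910 and the knockout values 485, 520 and 508, a log2 ratio of 0.90 ± 0.04 (SE, n = 3 per genotype). The libraries of each genotype lay close together there. At chromosome 6, 35002701 to 35004100, the control values were 366, 615 and 353 and the knockout values 120, 224 and 165, a log2 ratio of 1.38 ± 0.37. At chromosome 5, 134260151 to 134260500, the control values were 1479, 1167 and 1020 and the knockout values 939, 546 and 621, a log2 ratio of 0.80 ± 0.28. The genotypes did not overlap at any of these 3 regions. At the last one the first knockout library, at 939, came near the third control library, at 1020.

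Most of the leading knockout-list regions were wide and gained signal on an open background. At chromosome 5, 38314451 to 38322750, a stretch of 8300 bp, the knockout values were 2734, 2585 and 2628 and the control values 1681, 1279 and 1441, a log2 ratio of knockout over control of 0.85 ± 0.12 (SE, n = 3 per genotype). At chromosome 11, 118786051 to 118788350, the knockout values were 1562, 1265 and 1161 and the control values 848, 706 and 705, a log2 ratio of 0.82 ± 0.15. At chromosome 22, 28064501 to 28067550, the knockout values were 1344, 1070 and 1109 and the control values 675, 522 and 719, a log2 ratio of 0.88 ± 0.17. In all 3 the control values were at least 522, so the regions were accessible in both genotypes. At chromosome 1, 226121451 to 226125600, the knockout values were 1351, 1520 and 1291 and the control values 758, 667 and 1077, a log2 ratio of 0.73 ± 0.22, with the third control library nearest to the knockout.

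The remaining region of the 5 was narrow and had low values in control cells. At chromosome 22, 18879801 to 18880300, the knockout values were 320, 257 and 192 and the control values 34, 49 and 47, a log2 ratio of 2.54 ± 0.27 (SE, n = 3 per genotype). The lowest knockout library lay well above the highest control library. Regions overlapping this one were higher in knockout at each of the other 4 stages as well, with log2 ratios of 1.14 ± 0.77 (ESC), 1.92 ± 0.28 (GT), 1.94 ± 0.36 (PE) and 2.16 ± 0.52 (PP). At ESC the genotypes overlapped, with control values of 185, 33 and 105 against knockout values of 182, 196 and 335.

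**Figure D2:**
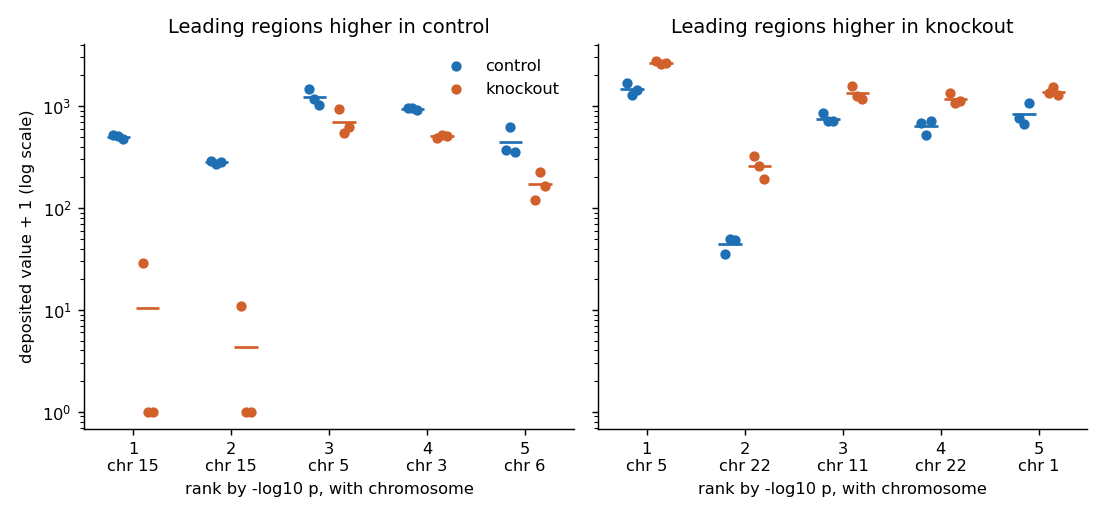
Deposited values plus 1, on a log axis, in the 3 control and 3 knockout libraries of the 5 DE regions with the highest -log10 p in each list; each point is a library and each bar the mean of its genotype. The pair on chromosome 15 falls to 0 in 2 knockout libraries, whereas the other regions shift by a factor of 1.66 to 5.80.

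The largest ratios, apart from the chromosome 15 pair, belonged to narrow regions of low signal. Among regions whose values did not overlap and whose higher mean was at least 50, the 10 largest ratios of the control list ran from 8.12 to 64.6-fold and those of the knockout list from 6.54 to 12.1-fold. Without the chromosome 15 pair the largest control ratio was 16-fold. Leaving out chromosome 15, these regions were 250 to 500 bp wide. At chromosome 3, 183573301 to 183573600, the control values were 67, 50 and 72 and the knockout values 9, 2 and 6, a log2 ratio of 3.26 ± 0.54 (SE, n = 3 per genotype). At chromosome 5, 121553701 to 121553950, the control values were 77, 45 and 51 and the knockout values 0, 8 and 0. Several of these regions had no signal in 1 or 2 libraries of the lower genotype, and their ratios depend on the 1 added to each mean.

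The same held in the knockout list. At chromosome 4, 129111451 to 129111700, the knockout values were 84, 31 and 39 and the control values 6, 4 and 0, a log2 ratio of knockout over control of 3.59 ± 0.97 (SE, n = 3 per genotype). At chromosome 8, 12945951 to 12946250, the knockout values were 70, 32 and 85 and the control values 9, 8 and 5, a log2 ratio of 2.93 ± 0.48. At chromosome 19, 16601851 to 16602350, the knockout values were 143, 115 and 54 and the control values 5, 25 and 15. The knockout libraries of the last region spread by more than a factor of 2, with the third the lowest. Of the 28 regions chosen by -log10 p or by ratio, 21 overlapped no list of another stage.

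Direction was uneven between autosomes. The control share ran from 4.85% on chromosome 22, with 43 control and 843 knockout regions, to 75.6% on chromosome 5, with 796 control and 257 knockout regions. Chromosomes 18 (64.2%), 2 (63.5%), 3 (57.9%), 10 (54.9%) and 13 (53.4%) were the other autosomes above 50%. On chromosomes 1 (15.8%), 14 (18.1%), 8 (18.5%), 11 (20.1%) and 19 (22.8%) at most 22.8% of the regions were higher in control. The 95% Wilson interval lay wholly above 50% for 5 autosomes and wholly below it for 15.

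On the most uneven chromosomes the imbalance ran through most windows, and elsewhere windows were mixed. On chromosome 5 the control share exceeded 50% in 24 of the 24 windows of 5 Mb that held at least 20 regions, with a range of 60.9% to 91.3%. On chromosome 22 it lay between 0% and 9.09% in 8 windows, and on chromosome 1 between 2.70% and 26.7% in 22 windows. Chromosome 6 ranged from 22.4% to 71.4%, with 8 of 17 windows above 50%. Chromosome 3 ranged from 29.3% to 90%, with 21 of 28 windows above 50%, and chromosome 9 from 19.6% to 78.3%, with 3 of 13. Over all autosomes 122 of 333 such windows had more control than knockout regions.

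The order of the autosomes at DE was not that of the other stages. Chromosome 22, at 4.85% in DE, had control shares of 58.8% (ESC), 21.3% (GT), 42.9% (PE) and 16.2% (PP). Chromosome 5, at 75.6% in DE, had 44.7% (ESC), 28.2% (GT), 39.3% (PE) and 7.55% (PP). An autosome lay on the same side of its stage's overall share at DE and at ESC in 11 of 22 cases, at DE and GT in 11, at DE and PE in 9, and at DE and PP in 8. Because direction moved with the chromosome, the comparisons with clusters 1, 2 and 9 and with the other stages below are also given within autosomes. The cause of the pattern was not tested.

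**Figure D3:**
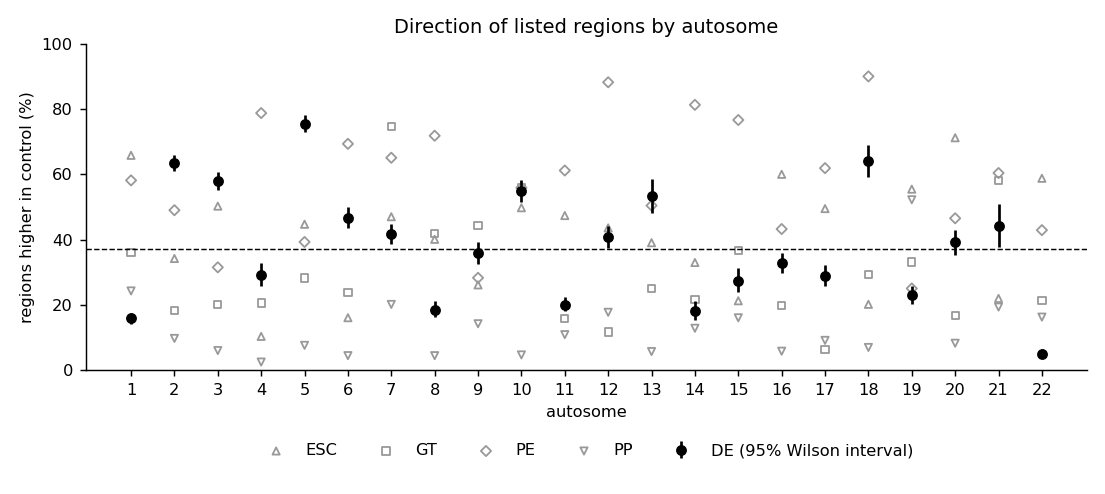
Share of listed regions that were higher in control (%) on each autosome; black points are DE with 95% Wilson intervals, grey symbols are the other 4 stages, and the dashed line is the DE share over all autosomes, 37.2%. DE shares run from 4.85% on chromosome 22 to 75.6% on chromosome 5, and the grey symbols do not follow the black points.

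Close neighbours mostly shared their direction. Part of this follows from the control share of 37.2% and from the uneven autosomes, and no comparison within autosomes was made. Of the 598 pairs of consecutive DE regions at most 1000 bp apart, 68 were both higher in control, 376 both higher in knockout and 154 (25.8%) of opposite direction. In 71 of the opposite pairs the regions abutted, with no base between them. All 71 abutting pairs were opposite. This may follow from the way the lists were built, if abutting regions of 1 direction were joined into 1 region. The sources used here do not say so, and it was not tested. An example lies on chromosome 3, where 123410501 to 123411650 had knockout values of 394, 135 and 267 and control values of 151, 78 and 157. The region that begins at the next base, 123411651 to 123413200, had knockout values of 176, 127 and 174 and control values of 267, 291 and 346. The genotypes overlapped at the left region and did not at the right one.

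The deposited data also hold 9 clusters of wild-type accessible regions, with 22892 autosomal regions in all, which carry numbers but no description in the sources used here. Of the DE regions, 2177 overlapped a cluster region by at least 1 bp, which is 14.7% of the control list and 9.73% of the knockout list. The control share was 47.2% inside the clusters and 35.9% outside, and it was higher inside on 20 of 22 autosomes. Clusters 2 and 9 carried this excess: regions overlapping either of them had a control share of 80.8% (698 of 864), and regions that overlapped only the other 7 clusters had 25.1% (330 of 1313), below the share outside. Inside them the values were higher and the ratios smaller: in the control list the median of the higher mean was 306 inside and 145 outside, and the median log2 ratio 0.79 and 1.17.

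Cluster 9 had the highest control share of the 9 clusters. Of its 625 DE regions, 524 were higher in control and 101 in knockout, a control share of 83.8% (95% Wilson interval 80.7 to 86.5) beside 37.2% over all DE regions. The share of cluster 9 lay above the share of the autosome on 22 of 22 autosomes, and the mean of the autosomes' own shares was 79.0%. The median values of its control-list regions were 295, 279 and 287.5 in the control libraries and 173, 152 and 149.5 in the knockout libraries. In 83.4% of these regions the values did not overlap, near the 79.8% of the whole control list. Its median log2 ratio of 0.85 amounts to a partial loss of signal in the knockout. Of the 4686 regions of cluster 9, 13.8% were listed at DE in either direction.

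Among the 524 control regions of cluster 9, 464 (88.5%) overlapped no list of another stage, against 81.6% of the whole control list, and the share was higher in cluster 9 on 19 of 22 autosomes. The knockout regions of cluster 9 also lay above their list, with 81 of 101 (80.2%) against 73.2%. The chromosome 3 and chromosome 6 regions described above, with log2 ratios of 0.90 and 1.38, were the control regions of cluster 9 with the highest -log10 p. The next, at chromosome 6, 2887651 to 2888850, had control values of 394, 320 and 250 and knockout values of 175, 62 and 65, a log2 ratio of 1.66 ± 0.52 (SE, n = 3 per genotype). The first knockout library was the highest of its 3 there and still lay below the lowest control library.

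Cluster 2 leaned the same way, with 186 control and 69 knockout regions and a control share of 72.9% (67.2 to 78.0). Its share exceeded that of the autosome on 20 of 22 autosomes. Its leading region, at chromosome 6, 9398101 to 9399050, had control values of 352, 242 and 318 and knockout values of 125, 130 and 104, a log2 ratio of 1.34 ± 0.19 (SE, n = 3 per genotype). Of its 186 control regions, 152 (81.7%) overlapped no list of another stage, close to the 81.6% of the whole control list. Among the control regions of clusters 1 and 3 to 8 this share was lower, from 28.1% in cluster 5 to 62.5% in cluster 4.

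Cluster 1 leaned the other way, with 52 control and 235 knockout regions and a control share of 18.1% (14.1 to 22.99). Its share was below that of the autosome on 19 of 22 autosomes, and cluster 9 was above cluster 1 on 22 of 22. Its leading knockout-list region, at chromosome 15, 77318301 to 77324200, had knockout values of 1908, 2135 and 2399 and control values of 1418, 1677 and 1483, a log2 ratio of knockout over control of 0.49 ± 0.12 (SE, n = 3 per genotype). The knockout-list regions of this cluster were highly accessible in both genotypes, with medians of 706, 616 and 667 in the knockout libraries and 498, 434 and 450 in the control libraries. Of the 235, 101 (43.0%) overlapped no list of another stage, against 73.2% of the whole knockout list. A further 67 overlapped a region higher in control at ESC, and 9 overlapped one higher in knockout there. Over the whole knockout list these numbers were 786 and 361.

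Control shares were 17.5% for cluster 6 (38 control, 179 knockout), 21.9% for cluster 4 (32, 114) and 25% for cluster 8 (43, 129). Cluster 7 had 29.6% (102, 243), cluster 3 had 40.4% (90, 133) and cluster 5 had 43.2% (32, 42). The intervals of clusters 3 and 5 included the 37.2% of all DE regions. Clusters 1 and 6 had the largest shares of their regions listed at DE, 14.5% and 14.2%, and cluster 4 the smallest, 5.47%. A DE region could overlap more than 1 cluster, as 159 did.

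**Figure D4:**
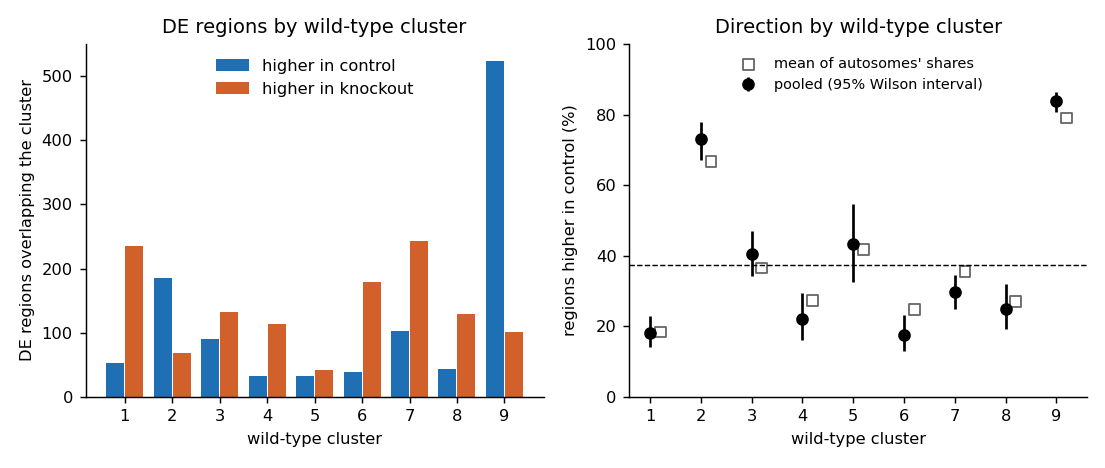
Left, number of DE regions overlapping each wild-type cluster, by direction; right, the share of them that were higher in control (%), pooled with 95% Wilson intervals (black) and as the mean of the autosomes' own shares (open squares), with the 37.2% of all DE regions as a dashed line. Clusters 9 and 2 lie above the line at 83.8% and 72.9%, and clusters 1 and 6 lie below it at 18.1% and 17.5%.

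Most DE differences were not listed at another stage. No overlap with any other stage was found for 5718 control regions (81.6%) and 8642 knockout regions (73.2%), and 4 and 12 regions overlapped lists of all 4 other stages. Regions overlapping the lists of another stage in 1 direction numbered 514 (ESC), 233 (GT), 296 (PE) and 562 (PP) among control regions, and 1147, 598, 717 and 1500 among knockout regions. Seen from the other stage, 8.65% of the autosomal ESC regions, 8.004% of the GT regions, 8.21% of the PE regions and 7.74% of the PP regions overlapped a DE region. The stages share no libraries.

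Regions shared with ESC were mostly listed there in the opposite direction. Of the DE control regions also listed at ESC, 342 of 514 (66.5%, 95% Wilson interval 62.3 to 70.5) were higher in knockout at ESC. Of the DE knockout regions, 361 of 1147 (31.5%, 28.9 to 34.2) were higher in knockout at ESC and the other 786 were higher in control. The list of ESC as a whole had 57.1% of its regions higher in knockout, so both DE lists departed from it, away from their own direction. In all, 1128 of 1661 shared regions (67.9%) were opposite. The knockout share at ESC was larger among DE control regions than among DE knockout regions on 21 of 22 autosomes. Values of the genotypes did not overlap at either stage in 159 (46.5%) of the control-to-knockout cases and in 415 (52.8%) of the 786 reverse cases. Among regions of the same direction at both stages this held in 86 of 172 control regions (50%) and 200 of 361 knockout regions (55.4%). The opposite cases were thus not separated more often than these.

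Shared regions with a high -log10 p at DE show the size of such a change of direction. The leader of the control list, at chromosome 17, 22023651 to 22024000, had a log2 ratio of control over knockout of 0.99 ± 0.49. At the overlapping ESC region it was -0.70 ± 0.48. The genotypes overlapped there, with knockout values of 759, 757 and 1163 and control values of 323, 436 and 886. The next of that list was on chromosome 2. At chromosome 2, 61697801 to 61700050, the control cells had values of 1106, 1063 and 1019 at DE and the knockout cells 689, 676 and 773, a log2 ratio of control over knockout of 0.58 ± 0.07 (SE, n = 3 per genotype). The overlapping ESC region, 61696901 to 61699750, had control values of 1201, 1439 and 1508 and knockout values of 1917, 2138 and 1679, a log2 ratio of -0.47 ± 0.14. The genotypes separated at both stages, in opposite order. At chromosome 14, 105955551 to 105958050, the control cells had values of 1207, 976 and 984 at DE and the knockout cells 1685, 1437 and 1524, a log2 ratio of -0.55 ± 0.12. The overlapping ESC region, 105957051 to 105957850, had control values of 1735, 1484 and 1324 and knockout values of 1227, 1098 and 950, a log2 ratio of 0.47 ± 0.16. The 2 stages' regions differ in extent, so these values are not of the same bases.

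Of the regions shared with GT and PE, 537 of 831 and 627 of 1013 had the same direction as at DE, and these were mostly knockout regions: in the control list the shared regions were divided nearly evenly at both stages. At GT, 121 of 233 DE control regions (51.9%, interval 45.5 to 58.3) and 425 of 598 DE knockout regions (71.1%, 67.3 to 74.6) were higher in knockout, beside 72.9% of the whole GT list. The DE control regions thus fell below the level of that stage and the DE knockout regions were near it. At PE, 153 of 296 DE control regions (51.7%, 46.0 to 57.3) and 484 of 717 DE knockout regions (67.5%, 64.0 to 70.8) were higher in knockout, beside 43.7% of the whole PE list. Here the DE knockout regions were well above the stage's level and the control regions also above it. The share was larger among DE knockout regions on 19 of 22 autosomes at GT and on 20 of 22 at PE.

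At PP most regions were listed as higher in knockout, whatever their direction at DE. The shares were 484 of 562 DE control regions (86.1%, 83.0 to 88.7) and 1326 of 1500 DE knockout regions (88.4%, 86.7 to 89.9), beside 88.6% of the whole PP list, and both are near that background. The share was larger among DE knockout regions on 17 of the 21 autosomes with both kinds.

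**Figure D5:**
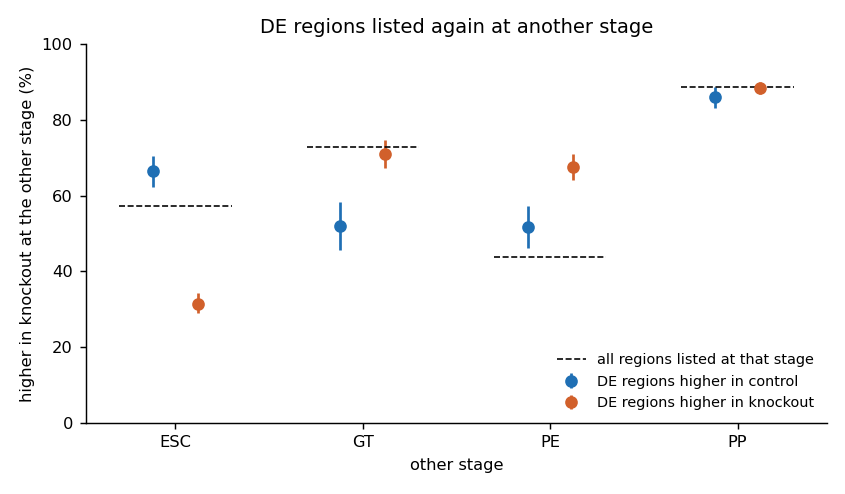
Share of DE regions that were higher in knockout (%) at each other stage where they were also listed, split by their direction at DE, with 95% Wilson intervals; dashed lines are the share over all regions listed at that stage. At ESC the 2 groups lie on opposite sides of the line in reverse order, 66.5% and 31.5%, and at PP both lie near 88.6%.

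Some DE regions overlapped regions listed in the same direction at every other stage. At chromosome 2, 114361001 to 114362200, the control cells had values of 475, 379 and 353 at DE and the knockout cells 132, 184 and 208, a log2 ratio of control over knockout of 1.20 ± 0.23 (SE, n = 3 per genotype). Overlapping regions had log2 ratios of 1.01 ± 0.22 (ESC), 1.03 ± 0.28 (GT), 2.15 ± 0.28 (PE) and 2.34 ± 0.51 (PP), and the genotypes separated at all 5 stages. At chromosome 8, 143819101 to 143821300, the knockout cells had values of 666, 665 and 812 at DE and the control cells 498, 349 and 373, a log2 ratio of knockout over control of 0.81 ± 0.18. Overlapping regions there had log2 ratios of 0.79 ± 0.23 (ESC), 0.99 ± 0.22 (GT), 0.89 ± 0.11 (PE) and 1.13 ± 0.06 (PP). The stages' regions differ in extent, and the GT region at chromosome 8, 143818801 to 143819550, shared no base with those of ESC, PE and PP. With the chromosome 22 region at 18879801, these DE regions overlapped regions of 1 direction from undifferentiated cells to pancreatic progenitors. They were chosen for that after their values were seen.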

How the data were processed

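The submitters' processing notes name Bowtie2, MACS2 and the hg19 build, without versions or roles. Not given in the sources used here are the tool that called the differences, whether libraries were scaled, and whether reads were shifted for the transposase. Per the labels, cells were lysed directly in tagmentation buffer and libraries made with a Nextera kit. The authors deposited 1 list of regions per genotype and stage, with 2 sets of 3 whole-number values, a log2 ratio and a -log10 p for each region. The deposited log2 ratio was recomputed from the sets, with 1 added to each mean, to within 5e-12. The second set was the higher in all control lists and was read as control. Values were not treated as counts and no count model was run. The authors also deposited the 9 wild-type clusters, numbered here as in the names of those lists.

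Ratios, sums, overlaps (at least 1 bp), windows and Wilson intervals were computed with Python 3.11.15, numpy 2.4.6, pandas 2.3.3 and scipy 1.17.1, and plots with matplotlib 3.10.9. The standard error of a log2 ratio came from the log2 of each value plus 1. The ratio and overlap code was tested on simulated data. Regions named were, in each list, the 5 with the highest -log10 p and examples of the 10 with the largest ratio among those whose higher mean was at least 50 and whose values did not overlap; leaders of clusters, of shared regions and of neighbouring pairs were added after their values were seen. The regions and lists were chosen with earlier results of these data known. Alternatives were another pseudocount, a stricter -log10 p, equal library sums, leaving out each value, other overlaps and leaving out chromosomes. The 130 regions on chromosomes X, Y and M were left out.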

Additional observations from a re-analysis of the deposited data

Results flagged for a closer look

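In regions left out of the counts above, 55 regions of chromosome Y were listed at DE, all of them as higher in knockout. Of the mitochondrial regions, 6 were higher in control. Their summed values were 1.77e+06, 1.52e+06 and 1.66e+06 in the control libraries against 1.47e+06, 1.07e+06 and 1.06e+06 in the knockout libraries, a log2 ratio of control over knockout of 0.46, opposite to the order of the autosomal sums, with the first knockout library again the highest of its 3. The remaining 1 was small and higher in knockout, with knockout values of 1949, 1312 and 1273 and control values of 1126, 456 and 853, a log2 ratio of control over knockout of -0.90. The chromosome Y regions and this small region stood out as signal outside the autosomes that was above the control samples.

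For 8 named regions, all values of the genotypes lay in opposite order at DE and at another stage; the difference between the stages was not tested. The regions at 61697801, 105955551, 144901901 and 1902251 had been chosen for being listed in the opposite direction at ESC, so their pattern is no finding. Of regions higher in control at DE, that at 134260151 on chromosome 5 had a log2 ratio of control over knockout of -1.32 at PP, that at 38339401 on chromosome 5 -1.70 at PP, that at 35002701 on chromosome 6 -1.50 at ESC, and that at 61697801 on chromosome 2 -0.47 at ESC. Of regions higher in knockout at DE, the ratio at ESC was 0.73 for that at 20269951 on chromosome 22, 0.47 for 105955551 on chromosome 14, 0.55 for 144901901 on chromosome 8 and 0.66 for 1902251 on chromosome 11. A further PP region overlapped that at 134260151, from 134259701 to 134260200. Its log2 ratio of control over knockout was -0.60 ± 0.33, and its genotypes overlapped. The overlapping regions of the stages differed in extent. At 35002701 and 134260151 they shared only an edge.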

How the results depend on the processing

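With a -log10 p of at least 10, the lists held 314 control and 783 knockout regions, a control share of 28.6% in place of 37.2%. That share was 38.4% over regions whose values did not overlap, 35.8% without chromosome 3, 36.5% without chromosomes 5 and 22, and 38.01% with autosomes weighted equally. Scaling to equal sums left 5360 knockout regions whose values did not overlap, in place of 8971, and moved log2 ratios towards control, from 0.90 to 1.15 at chromosome 3, 193530601. At the stricter p, the knockout share at the other stage was 34.5% (29 regions) at ESC for DE knockout regions. For DE control and knockout regions it was 0% (3 regions) and 75% (4 regions) at GT. In the same order it was 12.5% (8 regions) and 94.4% (18) at PE, and 75% (12) and 94.7% (38) at PP. With autosomes weighted equally it was 38.5% at ESC for DE knockout regions, and 82.6% and 90.3% at PP. The control share of clusters 2, 4, 5, 6, 7 and 8 at the stricter p was 60% (30 regions), 0% (22), 25% (8), 9.09% (22), 21.1% (38) and 15% (20). With autosomes weighted equally clusters 2, 6, 7 and 9 had 66.8%, 24.7%, 35.5% and 79.0%, and counting only overlaps of at least 50% of the cluster region it was 88.7% in cluster 9. Apart from the scaling, which lowers the knockout values because their listed sums were larger, the cause of these shifts was not tested. The stricter p also left a smaller number of regions. Of 224 values of the 28 named regions under alternatives, 216 moved by less than the spread between libraries, 8 by more, and 0 changed direction. Weighting autosomes equally, leaving out chromosomes 5 and 22, log2 medians at equal sums (also by width) and setting clusters 2 and 9 apart were chosen after seeing the data. No paired analysis was possible because the deposited values carry no replicate numbers. Designed results on gene lists and motifs were not run, as no annotation or sequence of hg19 was used here. The unknown depth limits every count.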
